A study of Mus musculus with 2 samples.

Results

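Mir21a, Mir21b and Mir21c are the mouse miR-21 genes, 3 of the 2202 miRNA genes counted in small RNA libraries of the adrenal gland. They were taken by symbol from the GENCODE M21 annotation, and each symbol matched 1 gene. Mir21a was chosen by its level and its ratio between the libraries, which were known beforehand, so both are given as a description with no test. The glands came from female B6CASTF1/J mice, the F1 hybrid of C57BL/6J and CAST/EiJ, at 14 days of age, and no treatment is named. The labels form 1 group of 2 libraries, biological replicates 2 and 1, so no condition can be compared. The label of replicate 2 names a single female and that of replicate 1 names 3 females. Both carry the same donor identifier, so it is not known how far they are independent. Whether the spread between them is partly technical was not tested.

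MicroRNAs are short RNAs cut from hairpin precursors that repress messenger RNAs through pairing with their seed, bases 2 to 8. miR-21 is known for repressing Pdcd4, a brake on growth and translation, and Spry1, a brake on receptor tyrosine kinase signalling. Its gene is switched on by AP-1 and STAT3, and the miRNA accumulates in injured, inflamed and fibrotic tissue. In a human adrenocortical cell line, angiotensin II, the hormone that drives aldosterone output of the outer cortex, raised miR-21, and added miR-21 raised aldosterone secretion.

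The mature sequences of the 3 genes are shown because their differences decide which seed they carry and which reads could be assigned to them. They are the RefSeq entries on GRCm38 (mm10), written 5′ to 3′, with the seed in capitals.
miR-21a-5p: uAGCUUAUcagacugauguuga
miR-21a-3p: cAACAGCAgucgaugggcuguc
miR-21b: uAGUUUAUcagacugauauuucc
miR-21c: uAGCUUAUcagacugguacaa

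Only miR-21c shared the seed of miR-21a-5p among 1738 mature mouse entries. Counted from 1 at the 5′ end, miR-21c matched miR-21a-5p over its first 15 bases and then differed by A16G, G18A, U19C, U20A and G21A. miR-21b matched at 18 of 22 positions. One of its differences, C4U, lies in the seed, which no other mature entry shared, and the others were G18A, G21U and A22C. The seed of miR-21a-3p was likewise found in no other entry. Each of the 4 mature sequences occurred in the hairpin of its own gene alone among 2202 hairpins. The first 16 bases of miR-21a-5p occurred in the Mir21a hairpin only, whereas the first 15 also occurred in that of Mir21c. The genome outside the annotated transcripts was not searched.

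The 3 genes lie apart from each other and from other miRNA genes, with none within 10000 bases. Mir21a (ENSMUSG00000065455.1) lies on the minus strand at chr11:86584067-86584158, inside the 3′ untranslated part of exon 12, the last of the 12 exons of the Vmp1 transcript ENSMUST00000018315.9. Vmp1 encodes a membrane protein of autophagy. The hairpin starts 1153 bases after the coding sequence and ends 202 bases before the transcript does. The other 7 annotated Vmp1 transcripts do not reach it. Mir21b (ENSMUSG00000098315.1) lies on the plus strand at chr3:29636744-29636851, in an intron of Egfem1. Mir21c (ENSMUSG00000099326.1) is intergenic, on the minus strand at chr8:128278148-128278225. The nearest miRNA gene to Mir21a was Mir301, 528846 bases away.

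The predicted fold of the 3 hairpins differed. RNAfold gave the Mir21a hairpin of 92 bases a minimum free energy of -46.2 kcal/mol, with 19 of the 22 bases of miR-21a-5p paired. Mir21b, of 108 bases, reached -25.3 kcal/mol with 16 of 23 mature bases paired, and Mir21c, of 78 bases, -23.5 kcal/mol with 12 of 21. Per base, Mir21a stood at -0.502 kcal/mol, and 12.1% of all hairpins were lower. Mir21b stood at -0.234 and Mir21c at -0.301, where 94.5% and 76.3% of hairpins were lower. The median was -0.433 over the 358 genes with at least 10 counts in each library and -0.348 over the other 1844. All 3 hairpins hold the letters CAGAC, which overlap the mature sequence and to which Smad proteins are known to bind in the human miR-21 precursor. CAGAC occurred on the transcribed strand of 6.99% of hairpins and on either strand of 15.9%.

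The libraries themselves stood apart. Replicate 2 held 5034257 counts on miRNA genes, 45.0% of its 11190481 reads, and replicate 1 held 3797107, 35.4% of 10720796. Mir122, the main miRNA of hepatocytes, took 21.5% of the counts of replicate 2, against 0.290% in replicate 1. With 1080041 counts in replicate 2 and 10996 in replicate 1, Mir122 also shows that the tables are not copies of each other, and the libraries were kept as 2 samples. Of the 2202 genes, 358 were detected, meaning at least 10 counts in each library. Reads mapping to several places, 25.0% of replicate 2 and 28.0% of replicate 1, were assigned to no gene in the authors' counting. They enter only the values set against all reads of a library.

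Among the members, reads were counted on Mir21a alone. Mir21a had 44808 counts in replicate 2 and 157386 in replicate 1, the same in the column made without regard to strand and 0 on the opposite strand in both libraries. Mir21b and Mir21c had 0 counts in every column of both libraries. A count of 0 allows up to 3 counts, which is 0.596 CPM (counts brought to one standard total) for replicate 2 and 0.790 CPM for replicate 1. For either gene that limit is 0.00670% of the Mir21a count in replicate 2 and 0.00191% in replicate 1. It covers reads that mapped to 1 place only. No molecular identifiers were named in the sources used here, so this limit and the intervals below cover counting error only.

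Mir21a was one of the main miRNA genes of the gland in replicate 1 and a lesser one in replicate 2. It took 0.890% of miRNA counts in replicate 2 (Wilson 95% interval 0.882 to 0.898), which is 8901 CPM and rank 18. In replicate 1 it took 4.14% (4.12 to 4.16), which is 41449 CPM and rank 7. The mean share was 2.52% ± 2.30 (SD, n = 2), rank 10, so the SD was nearly as large as the mean, while counting error alone would give an SD of 0.00796 percentage points. Of all reads in the library, Mir21a made up 0.400% in replicate 2 and 1.47% in replicate 1. In totals that leave out Mir122, its share was 1.13% in replicate 2 and 4.16% in replicate 1, with a mean of 2.65% ± 2.14.

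**Figure D1:**
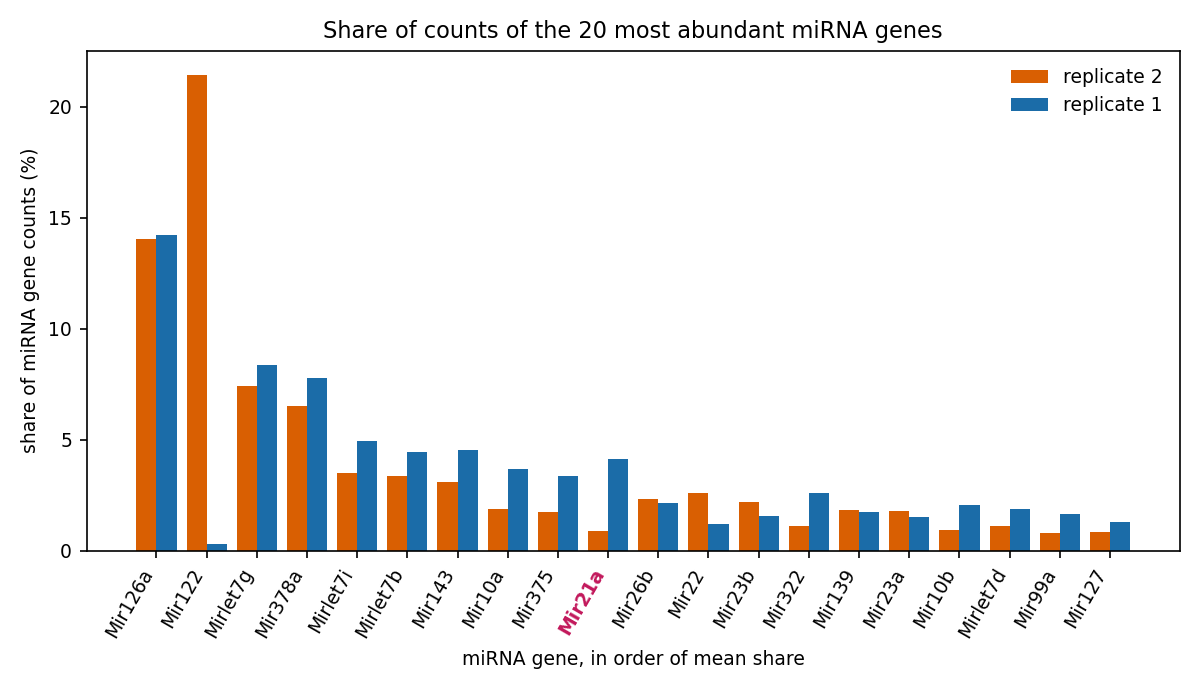
Bars give the share of miRNA gene counts (%, linear axis from 0) in replicate 2 (orange, left) and replicate 1 (blue, right) for the 20 genes of highest mean share. Mir21a, at 0.890% in replicate 2 and 4.14% in replicate 1, is shorter in replicate 2 by more than its neighbours in the order, and Mir122 is the one gene with a larger contrast, in the other direction.

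The place of Mir21a in the order of levels was not fixed by these libraries. On the mean, it followed Mir10a at 2.76% ± 1.27 and Mir375 at 2.57% ± 1.14, and preceded Mir26b at 2.25% ± 0.111 and Mir22 at 1.92% ± 0.990 (SD, n = 2 each). None of these differed from Mir21a beyond its spread. One SD around its mean, from 0.216% to 4.82%, takes in the mean shares of 43 other genes, from rank 5 to rank 48. Within each library Mir21a was told apart from its neighbours, whose shares lay outside its counting interval. In replicate 2 it stood between Mir10b, a Hox cluster gene, at 0.945% and Mir30d at 0.830%. In replicate 1 it stood between Mirlet7b at 4.43% and Mir10a at 3.66%.

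Relative to the rest of the library, Mir21a was lower in replicate 2. With trimmed-mean (TMM) scaling its log2 ratio of replicate 2 over replicate 1 was -1.77 (exact 95% counting interval -1.78 to -1.75), so it was 3.40-fold higher in replicate 1 (3.37 to 3.44). The median log2 ratio of the 358 detected genes was -0.03. A log2 ratio at or below -1 was found for 30 of them, 8.38%, and one at or above 1 for 36, 10.1%. This background depends on the scaling: 79 genes lay at or below -1 and 19 at or above 1 with library totals, and 56 and 22 with 5 genes as the scale. Mir21a is among the 30, and since its ratio chose it, nothing is read from that. With 1 library on each side there is no replicate check and no p-value.

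**Figure D2:**
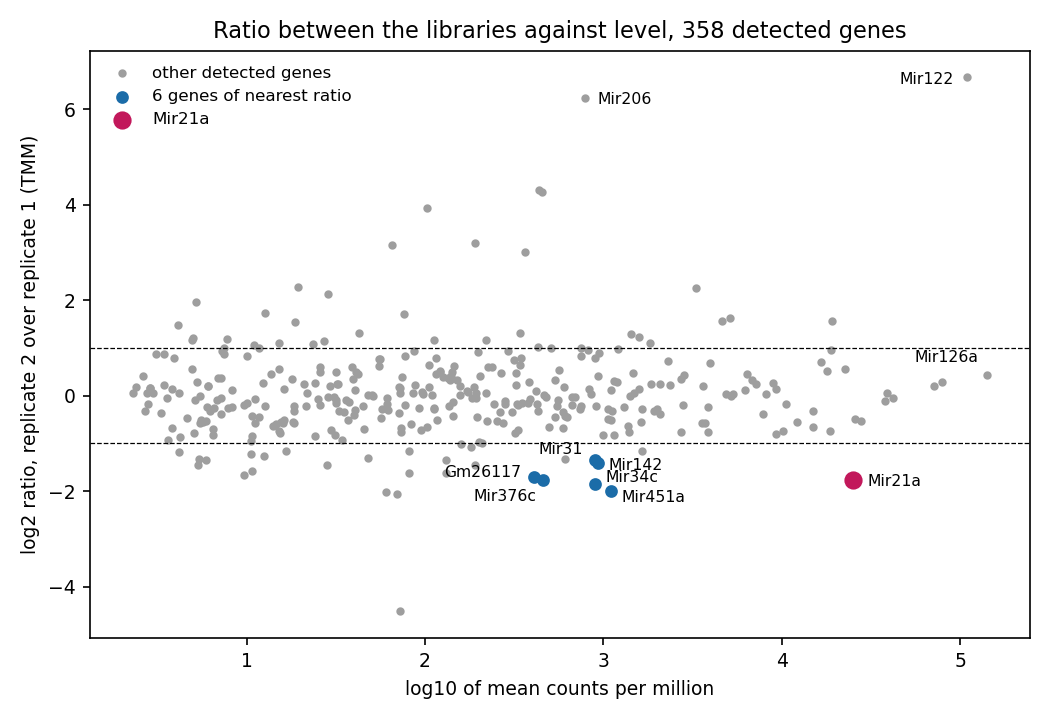
Each point is 1 of 358 detected miRNA genes, with the log10 of its mean CPM on the x axis and its TMM-scaled log2 ratio of replicate 2 over replicate 1 on the y axis; dashed lines mark -1 and 1. Mir21a (pink) lies at -1.77 at a far higher level than the 6 genes of nearest ratio (blue), while Mir122 and Mir206 lie above 6.

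Few genes lay further down, and none at a like level. The 5 detected genes with a lower log2 ratio than Mir21a, named after their values were seen, were Mir26a-1, Mir20b, Mir106a, Mir451a and Mir34c. Mir26a-1, from 22 counts in replicate 2 and 530 in replicate 1, stood at -4.51 and has a second numbered copy, Mir26a-2, so its value is uncertain. Among the 50 genes of highest mean share, Mir21a was the only one at or below -1 with TMM scaling. The next lowest was Mir411 of the imprinted Dlk1-Dio3 locus at -0.80. With library totals Mir21a is not alone. Mir411 took 0.547% of miRNA counts in replicate 2 and 1.30% in replicate 1, more than a 2-fold contrast. At or above 1 with TMM were Mir122, Mir195a, Mir99b, Mir22 and Mir125a, also named after seeing their values. The difference in share, replicate 2 minus replicate 1, was -3.25 percentage points. No other gene of the 2202 had a lower difference, and it made up 12.5% of the summed negative differences, -25.9 points. Shares add up to a fixed total, and the share of Mir122 was 21.2 points higher in replicate 2. The summed negative differences must offset that, so the 12.5% is set against a sum that Mir122 largely fixes.

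The size of the ratio depended on the scaling and its direction did not, over 9 scalings. With library totals over miRNA genes, to which Mir122 adds heavily in replicate 2, the log2 ratio was -2.22, or 4.66-fold. With the upper quartile it was -1.71, or 3.27-fold. DESeq2 size factors came out at 1.00 for both libraries, so they gave the ratio of unscaled counts, -1.81. Totals without Mir122 gave -1.88. All reads of the file as the total gave -1.87. With the geometric mean of Mir191, Mir423, Mir361, Mir186 and Mir320, genes often used as expression references, it was -2.06, and with Mirlet7g as the scale it was -2.05. A scaling moves all genes alike, so the distance between Mir21a and the median detected gene was -1.73 under each.

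**Figure D3:**
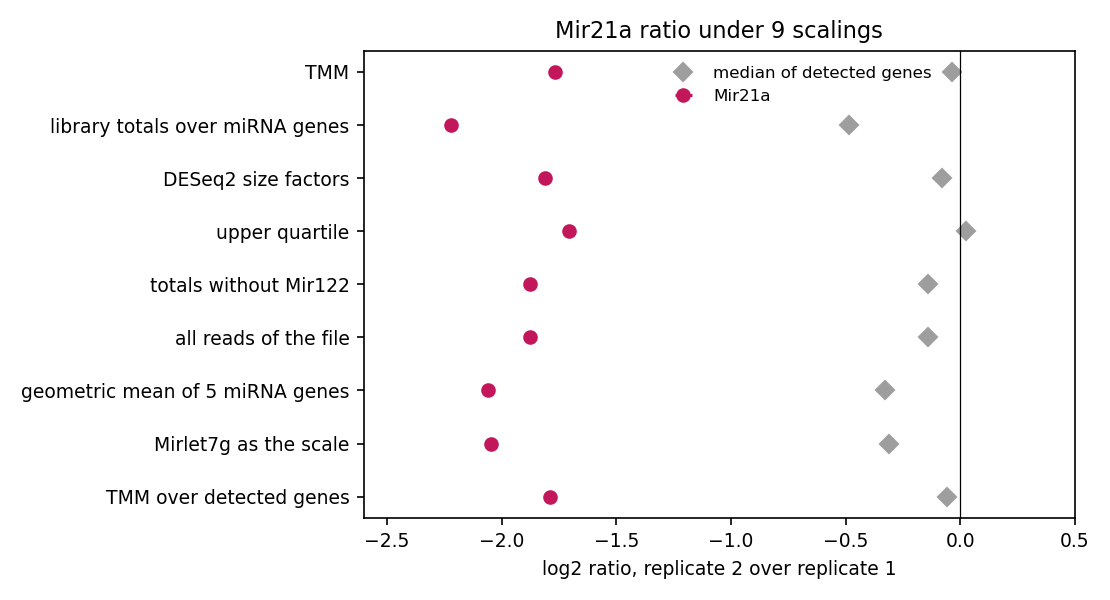
The x axis is the log2 ratio of replicate 2 over replicate 1, and each line down the page is 1 of 9 scalings. Pink points are Mir21a with exact 95% counting intervals narrower than the points, from -2.22 to -1.71, and grey diamonds are the median of the 358 detected genes, from -0.49 to 0.03.

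Set against single genes of the same library, where no scaling enters, the contrast ran from small to very large. For each 100 counts of Mir126a, the endothelial gene that led the mean ranking, Mir21a had 6.33 in replicate 2 and 29.1 in replicate 1. Against 100 counts of Mir378a, hosted by the coactivator gene Ppargc1b, it had 13.6 in replicate 2 and 53.4 in replicate 1. Against Mir143, of smooth muscle, it had 28.9 in replicate 2 and 91.2 in replicate 1, and against Mir375, of endocrine cells, 50.5 in replicate 2 and 122.6 in replicate 1. For each 100 counts of Mir142, a gene of blood cells, it had 2213 in replicate 2 and 2812 in replicate 1, so these genes differed in the same direction. Against Mir22 it had 34.0 in replicate 2 and 339.6 in replicate 1, since Mir22 was higher in replicate 2.

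Likeness to Mir21a was measured as the distance in log2 ratio, over 2 libraries, among the 145 genes whose mean count reached 1000. The 6 nearest were Mir376c, Gm26117, Mir34c, Mir451a, Mir142 and Mir31. Mir376c of the Dlk1-Dio3 locus had 816 counts in replicate 2 and 2863 in replicate 1, a log2 ratio of -1.76. The predicted gene Gm26117 stood at -1.70. Mir34c, a p53 target, had 1522 counts in replicate 2 and 5663 in replicate 1, at -1.85. Mir451a, of red blood cells, stood at -2.01, Mir142 at -1.42 and Mir31 at -1.35. All 6 were far less abundant, at mean ranks 74 to 118, and 2 points per gene cannot show that genes vary together.

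Other miRNA genes that are linked to angiotensin II, to the outer cortex and to vessels stood on both sides of 0. The list mixes genes that angiotensin II raises with genes acting on its receptor or on steroid enzymes. A common direction was therefore not to be expected, and nothing is read from its absence. The list holds Mir21a, Mir132, Mir212, Mir155, Mir483, both copies of Mir24, Mir221, Mir222 and 4 genes of the miR-29 family, and all 13 were detected. A log2 ratio at or below -1 was found for 3 of 13, beside 30 of all 358 detected genes (8.38%). Since Mir21a, chosen with its ratio known, is 1 of the 3, that call was fixed beforehand. One at or above 1 was found for 1 of 13, beside 36 of 358 (10.1%). The median was -0.05 with Mir21a and -0.02 over the other 12, beside -0.03 over all detected genes with the same TMM scaling. Besides Mir21a the low members were Mir221 and Mir222, an X-linked pair that represses Kit and Cdkn1b. Mir221 had 1380 counts in replicate 2 and 3557 in replicate 1, a log2 ratio of -1.32, and Mir222 had 253 in replicate 2 and 808 in replicate 1, at -1.63. The high member was Mir483, in an intron of Igf2, with 4278 counts in replicate 2 and 230 in replicate 1, at 4.26. Mir132 and Mir212, neighbours that angiotensin II raises in rodent tissues, stood at -0.42 and -0.71. Mir155, which represses an angiotensin II receptor in human cells, was at 0.05, with 958 counts in replicate 2 and 954 in replicate 1. Mir24-1 and Mir24-2, whose product targets the last enzymes of cortisol and aldosterone synthesis in human cells, stood at 0.59 and 0.42, and share sequence with each other. Mir29a, Mir29b-1, Mir29b-2 and Mir29c, repressors of collagens, lay between -0.18 and 0.45.

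The genes known from injury, inflammation and fibrosis also went both ways, with more at or below -1 than at or above 1. Of 20 listed, 18 were detected, while Mir146b had 1 count in replicate 2 and 6 in replicate 1 and Mir199a-1 had 0 in replicate 2 and 3 in replicate 1. A log2 ratio at or below -1 was found for 5 of 18, beside 30 of all 358 detected genes (8.38%). Mir21a is 1 of the 5 and was chosen with its ratio known, so its place among them was fixed beforehand. One at or above 1 was found for 2 of 18, beside 36 of 358 (10.1%). The median was -0.11, and -0.05 over the other 17, beside -0.03 over all. The low ones were Mir21a, Mir34c, Mir34b at -1.45, Mir31 at -1.35 and Mir199a-2, of stromal cells, at -1.27. Mir199a-2 had 29 counts in replicate 2 and 73 in replicate 1, with a counting interval of -1.96 to -0.65. It has a second numbered copy, Mir199a-1, so its value is uncertain. Mir22 was high, with 131937 counts in replicate 2 and 46350 in replicate 1, at 1.55, and so was the stromal gene Mir214 at 1.11. The inflammatory genes Mir146, Mir223 and Mir155 stood at 0.29, 0.45 and 0.05. The p53-linked Mir34a stood at 0.01, while its relatives Mir34b and Mir34c were among the low ones, and the hypoxia gene Mir210 stood at -0.45. The lists share 7 genes besides Mir21a and were drawn up with results of these libraries known, so they are no independent sign of a direction. With library totals the medians were -0.50 for the angiotensin II list and -0.57 for this one, beside -0.49 over all detected genes. With that scaling 4 genes of the angiotensin II list lay at or below -1 and 1 at or above 1. For this list the counts were 6 and 1, beside 79 and 19 of the 358. Mir21a is counted among the low genes of both lists.

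**Figure D4:**
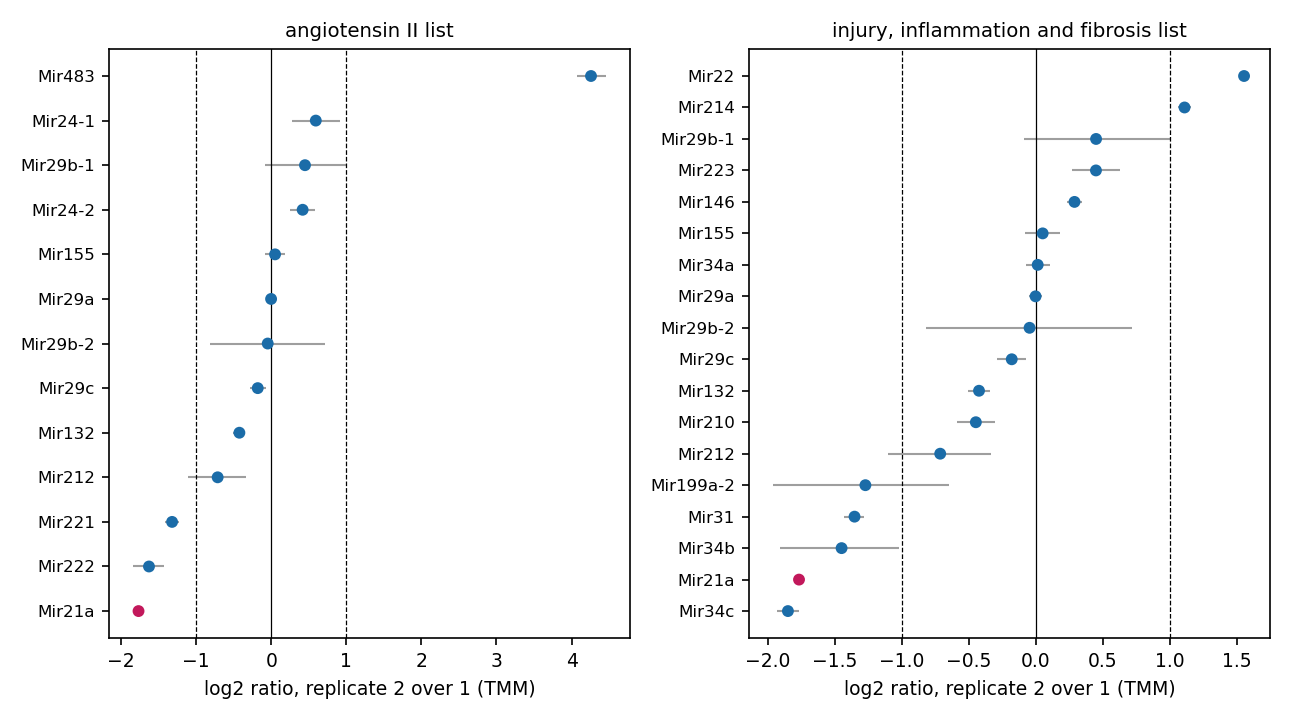
Points are TMM-scaled log2 ratios of replicate 2 over replicate 1 of the detected list members, with exact 95% counting intervals as bars; dashed lines mark -1 and 1 and Mir21a is pink. Mir21a is the lowest of 13 in the angiotensin II list and next to lowest, after Mir34c, of 18 in the injury, inflammation and fibrosis list.

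Markers of other cell types differed between the same libraries, and their part in the level of Mir21a was not tested. miR-21 is made by many cell types, and in whole glands fewer cells of a type and less RNA per cell cannot be told apart. The hepatocyte gene Mir122 stood at 214538 CPM in replicate 2 and 2896 CPM in replicate 1. The 4 genes listed for kidney and gut summed to 1155 CPM in replicate 2 and 109.03 CPM in replicate 1. The 2 detected ones, Mir192 and Mir194-2, stood at log2 ratios of 4.30 and 3.20. Whether they come from a tissue other than that of Mir122 was not tested. Of the 6 skeletal muscle genes only Mir206 was detected, with 7815 counts in replicate 2 and 106 in replicate 1, while Mir1a-1, Mir133a-1 and Mir133a-2, which have near-identical copies, were at 0 in both. The 3 erythroid genes summed to 559.96 CPM in replicate 2 and 2236 CPM in replicate 1, mostly through Mir451a. The 5 leukocyte genes summed to 2196 CPM in replicate 2 and 3421 CPM in replicate 1. Of these Mir142 stood at -1.42 and the other 4 between 0.05 and 0.63.

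Genes of vessels and stroma stood on both sides of 0. Mir126a stood at 140629 CPM in replicate 2 and 142267 CPM in replicate 1, a TMM-scaled log2 ratio of 0.44. The smooth muscle pair summed to 32652 CPM in replicate 2 and 46450.1 CPM in replicate 1, with Mir143 at -0.11 and Mir145a at 1.29. The 4 stromal genes summed to 3047 CPM in replicate 2 and 3922 CPM in replicate 1. However, all 3 detected ones passed 1 in size, Mir214 at a log2 ratio of 1.11, Mir140 at -1.17 and Mir199a-2 at -1.27. The value of Mir199a-2 is uncertain, from 29 counts in replicate 2 and 73 in replicate 1. The 3 neuroendocrine genes, led by Mir375, summed to 17814 CPM in replicate 2 and 34177 CPM in replicate 1. The 4 genes listed for steroid-producing cells of adrenal and gonad were all detected and summed to 510.5 CPM in replicate 2 and 868.6 CPM in replicate 1. Most of that sum was Mir132 at -0.42, while Mir383 stood at 2.14, with 219 counts in replicate 2 and 51 in replicate 1, and Mir202 at 0.05. CPM is set against the library total, to which Mir122 adds in replicate 2, so a sum lower in CPM can be higher with TMM. The log2 ratio of the sums with TMM was 0.09 for the stromal genes, -0.06 for smooth muscle, -0.19 for leukocytes, -0.31 for the steroid-producing cell list, -0.49 for the neuroendocrine genes and -1.55 for the erythroid ones. None of the genes listed for steroid-producing cells marks the adrenal cortex alone, so the labelled tissue could be checked only in part.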

How the data were processed

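Small RNA was sequenced from adrenal tissue in 2 libraries. The authors deposited raw read counts per miRNA gene, made on mm10 with GENCODE M21 per the text files deposited beside them. The aligner and the counter were not given in the sources used here. Each table had 4 summary lines and 3 unnamed count columns. From the values, the columns were read as without strand, own strand (used here) and opposite strand. The summary lines stayed out of totals. All 2202 identifiers matched GENCODE M21, and mature sequences came from RefSeq (GRCm38).

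From the counts, shares, CPM and log2 ratios (prior count 0.5, edgeR TMM over all genes) were computed across all genes, with Wilson and exact Clopper-Pearson 95% intervals. The ratio code was tested on simulated data. The members and lists were chosen with earlier results of these data known. Named genes were the members, genes of the same seed, the 3 neighbours on each side in level, the 6 of nearest ratio, the listed genes, and Mir122 and Mir126a. Mir26a-1, Mir20b, Mir106a, Mir411, Mir195a, Mir99b, Mir125a and Mir378a fall outside this rule and were named after their values were seen. Also outside it are Mir301, named by position, and Mir26a-2, named as a copy. Mirlet7g, Mir191, Mir423, Mir361, Mir186 and Mir320 were named as scales. Tools were R 4.3.3 with edgeR 4.0.16 and, for size factors only, DESeq2 1.42.0, RNAfold 2.7.2, and Python 3.11.15 with scipy 1.17.1, pandas 2.3.3, numpy 2.4.6 and matplotlib 3.10.9.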

Additional observations from a re-analysis of the deposited data

How the results depend on the processing

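The mean share of Mir21a, 2.52%, was 0.890% without replicate 1 and 4.14% without replicate 2, so that 1 library decides the level within that range. It was 0.934% with all reads as the total and 3.35% in the column without strand. It lay between 2.55% and 2.93% under the other 3 alternatives. Its rank of 10 on the mean became 8 in the column without strand, 9 in totals without Mir122, 18 without replicate 1 and 7 without replicate 2. Its log2 ratio of -1.77 kept its direction under all 11 alternatives. It was -2.22 with library totals, -1.81 with DESeq2 size factors, -1.71 with the upper quartile, -1.88 without Mir122, -1.87 with all reads, -2.06 with 5 genes as the scale, -2.05 with Mirlet7g as the scale, -1.79 with TMM over detected genes and -1.74 in the column without strand. A prior count of 5 and thinning of replicate 2 left it within its counting interval.

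The count of genes at or below -1, 30, was 78 with a minimum of 1 count, 18 with a minimum of 100 and 79 with library totals. The count at or above 1, 36, was 79 with a minimum of 1 count, 21 with a minimum of 100 and 19 with library totals. The median of the angiotensin II list was -0.50 with library totals, -0.090 with a minimum of 100 counts and -0.024 without Mir21a. That of the injury, inflammation and fibrosis list was -0.57 with library totals, -0.0016 with a minimum of 100 counts and -0.046 without Mir21a. For genes of few counts, such as Mir29b-2 with 30 in replicate 2 and 32 in replicate 1, depth limits the ratio. For Mir21a the 2 libraries limit it.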
